A study of Rattus norvegicus with 8 samples.

Results

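Calcium pumps and sodium-calcium exchangers carry calcium out of the cytosol, and their transcripts were followed in neurons of the rat hippocampal CA3 field after brain injury. The members were 8 genes of the 18365 gene names on the array, found by name. They were the plasma membrane calcium pumps Atp2b1, Atp2b2, Atp2b3 and Atp2b4 with 7 probes, the endoplasmic reticulum pump Atp2a2 with 3 probes and the exchangers Slc8a1, Slc8a2 and Slc8a3 with 5 probes. Together they held 15 of the 41012 probes that were not controls, and each probe was treated on its own.

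Male Sprague-Dawley rats, of an age not given in the sources used here, received a moderate fluid percussion injury, in which a pulse of fluid strikes the surface of the brain, or a sham injury, or were left untreated as naïve animals. Brains were frozen 24 hours later, and CA3 neurons were cut out of thin sections with a laser. In injured rats, neurons on the side of the injury that took up Fluoro-Jade, a fluorescent stain of degenerating neurons, formed the dying group, and unstained neurons next to them formed the surviving group. Each array held the amplified RNA of a pool of neurons from several rats, about 600 neurons for the injured groups, and each of the 4 groups had 2 arrays. The p-values measured the spread between these pools, taken for each probe over all 4 groups together and drawn toward that of other probes. A comparison of any pair of groups thus also carries the spread of the other groups. Naïve and sham arrays lay on 1 slide and surviving and dying arrays on another, which was read with another version of the extraction protocol, and an effect of the slide cannot be told apart from that of injury wherever sham is the reference. The labels name a pair of amplification kits without saying which pool received which, and the part of the kit in the results was not tested.

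Resting neurons keep free calcium in the cytosol far below its level outside the cell. Plasma membrane calcium pumps use ATP to expel calcium with high affinity, the endoplasmic reticulum pump uses ATP to load the internal store, and sodium-calcium exchangers use the sodium gradient to expel large loads, and can run backwards when sodium builds up in the cell. Overload of neurons with calcium is a known feature of excitotoxic and traumatic injury, and in cultured neurons under excitotoxic conditions calcium-activated proteases cleave some of these transporters.

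Values are log2 signals, the log2 of the processed signal of a probe over the median of all probes on its array, so that 0 is the array's median. That median lay closer to background on the uninjured arrays, where the lowest signal counted as well above background was at -0.81 to -0.15, than on the injured ones, where it was at -2.30 to -1.35. The median was a signal of 27.2 and 22.7 on the naïve arrays, 16.5 and 16.4 on the sham arrays, 52.2 and 48.2 on the surviving arrays and 19.2 and 52.6 on the dying arrays. The number of probes well above background ran from 20191 on sham replicate 2 to 29345 on surviving replicate 1. Over the 15250 probes above background on all 8 arrays, replicates correlated across probes with r = 0.966 in naïve, 0.985 in sham, 0.976 in surviving and 0.892 in dying neurons. The SD of the difference between replicates was 0.69, 0.49, 0.59 and 1.21 in the same order. The dying arrays were thus the least alike.

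Markers were read first, to check the label of the captured cells. Of the 5 general neuronal markers on the array, 4 were above background on all 8 arrays, with Eno2 the brightest, as were 3 of 4 markers of pyramidal neurons, led by Nrgn, and 3 of 4 markers of CA3 pyramidal neurons, led by Elavl4. Grik4, a kainate receptor subunit enriched in CA3, had log2 signals of 3.61 and 4.95 in naïve neurons, 4.83 and 4.79 in sham neurons, 5.25 and 5.00 in surviving neurons and -1.07 and 4.97 in dying ones, and it was not above background on dying replicate 1. That array stood apart from the other 7 for Grik4, and it was the lowest of the 8 for Nefl, a neurofilament subunit, at 1.01 against 6.01 on dying replicate 2. Stmn2 had no usable spot on the surviving arrays or dying replicate 2, and Flt1 none on naïve replicate 1, so both were left out of the sums below.

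Sums of the markers, in multiples of the array median and in the order naïve, sham, surviving and dying with replicate 1 before replicate 2, were as follows. General neuronal markers summed to 5382 and 7244, 10286 and 8480, 3372 and 3427, and 1549 and 1891. Pyramidal markers summed to 4670 and 6711, 8624 and 7775, 5313 and 5555, and 2965 and 2929, and those of CA3 to 218 and 331, 384 and 340, 282 and 217, and 136 and 163. All these neuronal sums were lower on both dying arrays than on any other array.

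Markers of other cells were present as well. Microglia and macrophage markers, 5 of 8 above background on all 8 arrays and led by C1qa, summed to 112 and 233, 243 and 218, 245 and 288, and 1522 and 894, in the same order. Endothelial markers, 2 of 5 above background on all 8 arrays and led by Vwf, with Tek above background on none, summed to 28.5 and 47, 44.6 and 33.7, 42 and 35.3, and 152 and 86. Both sums were higher on each dying array than on the other 6. The rise of the former rests on C1qa, C1qb and Cd68, while Aif1 and Csf1r on the dying arrays were near their levels in sham. Interneuron markers, 4 of 6 above background on all 8 arrays and led by Pvalb, summed to 330 and 453, 416 and 394, 164 and 147, and 676 and 159. Astrocyte markers, 5 of 6 above background on all 8 arrays and led by Slc1a3, summed to 693 and 775, 1199 and 772, 424 and 437, and 986 and 446. Oligodendrocyte markers, 5 of 5 above background on all 8 arrays and led by Mog, summed to 180 and 272, 232 and 304, 62.6 and 67.1, and 180 and 75.4. For these last 3 sums dying replicate 1 lay above dying replicate 2 and both surviving arrays. The sums rest on a few bright genes, such as Slc1a3 and Mog, and Pvalb, Gfap, Slc1a2 and Cnp1 of the same lists had their lowest value of the 8 arrays on dying replicate 1. Several of these markers, and the pumps and exchangers themselves, are also made by cells other than neurons. A change in the mix of captured cells and a change of RNA per cell cannot be told apart in pooled RNA, and the part of these markers in the results on pumps and exchangers was not tested.

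**Figure D1:**
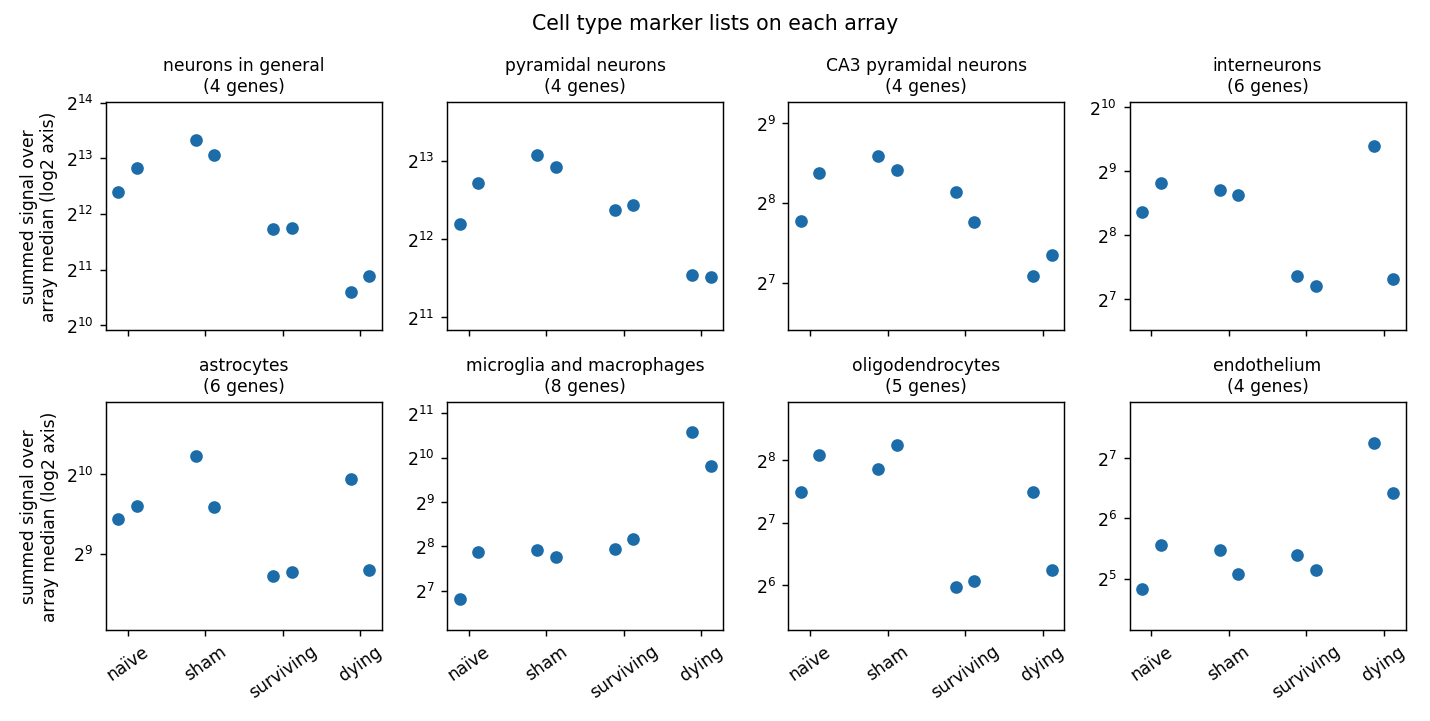
Summed signal of the marker lists on each of the 8 arrays, in multiples of the array median on a log axis, with 1 panel for each list. The sum of microglia and macrophage markers was 1522 and 894 on the dying arrays and between 112 and 288 on the other 6, and the sum of general neuronal markers was lowest on the dying arrays.

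Of the 15 member probes, 9 stood well above background on each of the 8 arrays, a state shared by 37.2% of all probes. These were the probes of Atp2b1, Atp2b2, Atp2b3 and Atp2a2. The probe of Atp2b4 and 1 probe of Slc8a1 were above background on none of the 8 arrays, as were 18.2% of all probes, so that transcripts of Atp2b4 were not detected. The remaining 4 probes, all of exchangers, were above background on some arrays only.

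**Figure D2:**
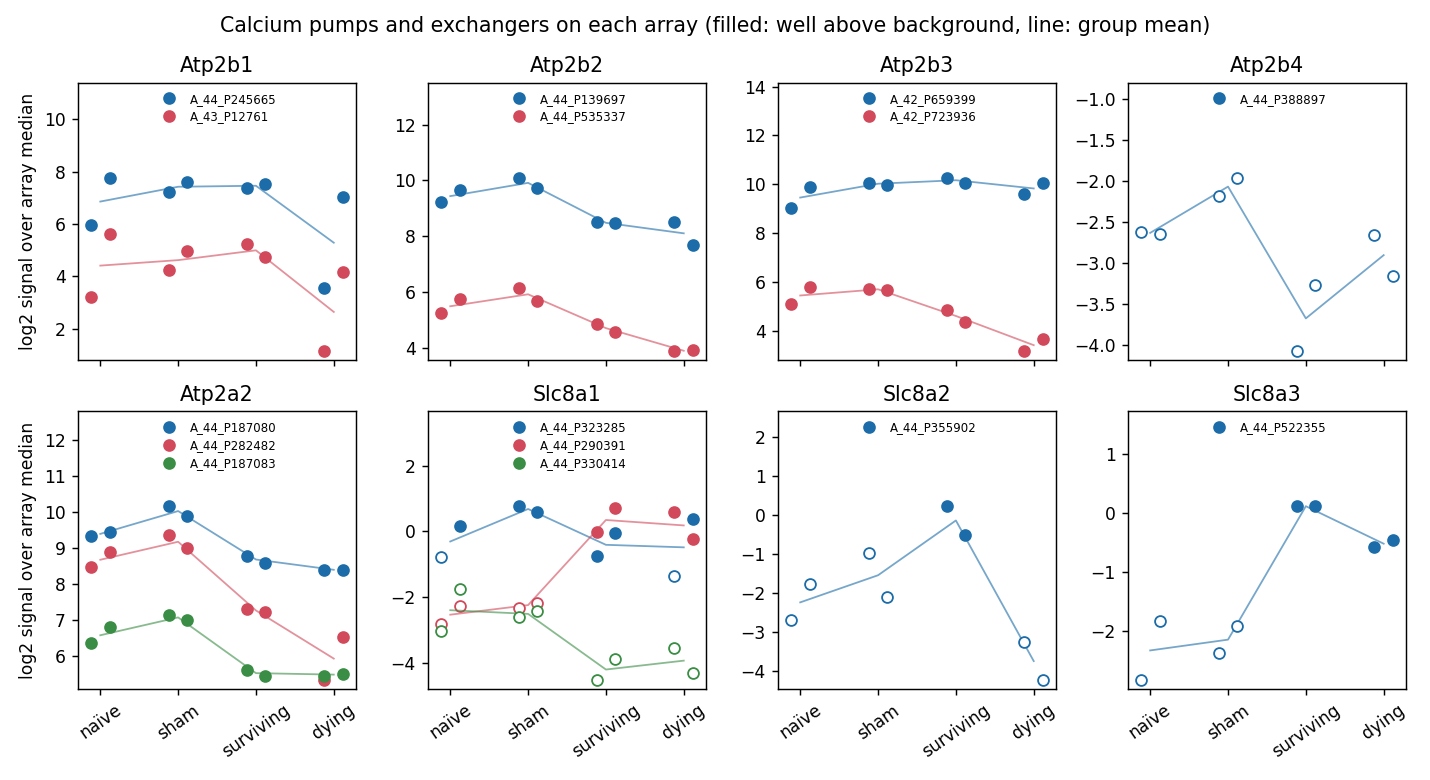
Log2 signal over the array median of each member probe on each of the 8 arrays, 1 panel for each gene; filled points are well above background, open points are not, and lines join the group means. Probes of Atp2b2 and Atp2a2 lay lower on the 4 arrays of injured rats than on the 4 of uninjured rats, while 1 probe of Slc8a1 and the probe of Slc8a3 were above background only on arrays of injured rats.

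Atp2b1 encodes the plasma membrane calcium pump found in nearly all cells. Its brightest probe, A_44_P245665, had log2 signals of 5.94 and 7.77 in naïve neurons, 7.23 and 7.62 in sham neurons, 7.39 and 7.54 in surviving neurons and 3.54 and 7.02 in dying ones. Dying replicate 1 stood below all other arrays, and dying replicate 2 lay within the range of the uninjured arrays. The other probe, A_43_P12761, had 3.21 and 5.60 in naïve neurons, 4.26 and 4.98 in sham neurons, 5.25 and 4.74 in surviving neurons and 1.13 and 4.15 in dying ones, and it followed the brighter one across the 8 arrays, with r = 0.98. For both probes the order of the group means was surviving, sham, naïve and dying, and each group overlapped with its neighbour in that order. The difference between surviving and dying neurons was 2.18 (SE 1.07, adjusted p = 0.281 in limma) for A_44_P245665 and 2.35 (SE 1.07, adjusted p = 0.251) for A_43_P12761, so neither passed the threshold of 0.05. Without dying replicate 2, which left the array that stood apart, both passed it, with differences of 3.92 and 3.87. Without dying replicate 1 the differences were 0.44 and 0.84 and neither did.

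Atp2b2 encodes a fast plasma membrane pump enriched in neurons and in hair cells of the ear. Its brightest probe, A_44_P139697, had log2 signals of 9.23 and 9.64 in naïve neurons, 10.10 and 9.73 in sham neurons, 8.50 and 8.46 in surviving neurons and 8.51 and 7.70 in dying ones. The 4 injured arrays lay below the 4 uninjured ones, and surviving and dying neurons overlapped. The other probe, A_44_P535337, had 5.23 and 5.74 in naïve neurons, 6.14 and 5.68 in sham neurons, 4.83 and 4.56 in surviving neurons and 3.86 and 3.91 in dying ones. Here the groups separated in the order naïve and sham, surviving, then dying, with naïve and sham overlapping. The probes followed each other across the 8 arrays with r = 0.94. Against sham, dying neurons were lower by both probes, with differences of -1.81 (SE 0.47, adjusted p = 0.0175 in limma) and -2.03 (SE 0.44, adjusted p = 0.00952), lower on 2 of 2 dying arrays. They passed the threshold in 11 and 13 of 16 alternatives, with differences as near 0 as -0.80 and -0.87, and neither did after quantile normalization. In surviving neurons the differences from sham were -1.43 (adjusted p = 0.0682) and -1.21 (adjusted p = 0.0894), and did not pass the threshold. They were -0.46 and -0.24 with the median of probes above background on all 8 arrays, and -1.63 and -1.41 with the RefSeq median. Before scaling, A_44_P139697 had 18045 and 13879 in sham and 18891 and 16908 in surviving neurons. A_44_P535337 had 1163 and 841.1, and 1489 and 1137. On that scale only the dying arrays lay below all uninjured ones.

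Atp2b3 encodes a plasma membrane pump largely restricted to neurons. Its probes did not follow each other across the 8 arrays, with r = 0.08. Probe A_42_P659399 had log2 signals of 9.02 and 9.89 in naïve neurons, 10.06 and 9.98 in sham neurons, 10.27 and 10.06 in surviving neurons and 9.59 and 10.07 in dying ones, a narrow range in which the dying arrays overlapped with each other group. Probe A_42_P723936 had 5.09 and 5.78 in naïve neurons, 5.70 and 5.68 in sham neurons, 4.83 and 4.37 in surviving neurons and 3.14 and 3.66 in dying ones. By this probe all injured arrays lay below the uninjured ones on the scaled values, and the dying arrays lay below the surviving ones. For surviving neurons, lying below the uninjured ones depends on the scaling. Their unscaled signals, 1483 and 994.9, exceeded the 857.2 and 841.1 of sham, while dying neurons, with 169.9 and 664.4, stayed lowest. The difference of surviving neurons from sham was -1.09 (adjusted p = 0.134 in limma). It shrank to -0.31 with the 75th percentile and -0.074 after quantile normalization, and was -1.29 with the RefSeq median. Against sham, dying neurons differed by -2.29 (SE 0.47, adjusted p = 0.00761 in limma) by A_42_P723936, which passed in 12 of 16 alternatives, and by -0.19 (SE 0.48, adjusted p = 0.751) by A_42_P659399. The sign of the latter turned with the scaling, to 0.53 with the 75th percentile, 0.70 after quantile normalization, 0.61 with the authors' series values and 0.81 with the median of the probes above background on all 8 arrays. It turned to 0.045 without dying replicate 1. A change of Atp2b3 as a gene was thus seen by 1 of its 2 probes, and which part of the transcript each probe reads was not tested.

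Atp2b4, the gene of a further widely made plasma membrane pump, had log2 signals between -4.08 and -1.96 on the 8 arrays, not well above background on any, and no fold is given.

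Atp2a2 encodes the endoplasmic reticulum calcium pump that is the main form in neurons. Its brightest probe, A_44_P187080, spotted 10 times on each array, had log2 signals of 9.34 and 9.45 in naïve neurons, 10.17 and 9.89 in sham neurons, 8.79 and 8.58 in surviving neurons and 8.39 and 8.41 in dying ones. The groups did not overlap, in the order sham, naïve, surviving and dying. Probe A_44_P282482 had 8.46 and 8.89 in naïve neurons, 9.36 and 9.00 in sham neurons, 7.30 and 7.24 in surviving neurons and 5.35 and 6.53 in dying ones, in the same order and also without overlap. Probe A_44_P187083 had 6.36 and 6.81 in naïve neurons, 7.16 and 7.00 in sham neurons, 5.61 and 5.45 in surviving neurons and 5.46 and 5.52 in dying ones, and surviving and dying neurons overlapped. Across the 8 arrays the probes followed each other with r from 0.91 to 0.98.

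Against sham, all 3 probes of Atp2a2 were lower in dying neurons, by -3.24 (SE 0.52, adjusted p = 0.00339 in limma) for A_44_P282482, -1.63 (SE 0.41, adjusted p = 0.0161) for A_44_P187080 and -1.59 (SE 0.42, adjusted p = 0.0191) for A_44_P187083. In surviving neurons, A_44_P282482 (-1.91, SE 0.52) and A_44_P187083 (-1.55, SE 0.42) were lower, each with an adjusted p = 0.0411, and A_44_P187080 (-1.34, SE 0.41) missed the threshold with an adjusted p = 0.0566. The former 2 no longer passed with the replicate number as a block or with the replicates of the injured groups crossed. The size of these differences depends on the scaling. Before scaling, A_44_P187080 had signals of 17585 and 15915 in naïve neurons, 18910 and 15553 in sham neurons, 23144 and 18381 in surviving neurons and 6451 and 17857 in dying ones. On that scale only dying replicate 1 stood apart from the other 7 arrays, as it did for A_44_P187083. The signals of A_44_P282482 were 9601 and 10782 in naïve neurons, 10798 and 8363 in sham neurons, 8251 and 7268 in surviving neurons and 781.9 and 4850 in dying ones, so that all injured arrays lay below the uninjured ones before scaling as well. The loss relative to sham came with array medians that were higher on 3 of the 4 injured arrays than on any uninjured one, and an absolute change of Atp2a2 was not tested. The sign of the 5 Atp2a2 differences past the threshold was the same in all 16 alternatives counted, a crossed pairing of replicates not being among them, while the threshold was passed in 5 of 16 by each of the 2 in surviving neurons and, in dying neurons, in 15 by A_44_P282482, 9 by A_44_P187080 and 7 by A_44_P187083.

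The 3 probes of Atp2a2 and the 2 of Atp2b2 were lower together in dying neurons, and the stretches before the start sites of both genes are shown beside that of Atp2b1, whose probes did not pass the test. They are the 250 bases upstream of the start, from RefSeq on the assembly GRCr8, printed 5′ to 3′ on the strand of the gene, at chr12:39733269-39733518 on the + strand for Atp2a2, chr4:148763654-148763903 on the - strand for Atp2b2 and chr7:35622211-35622460 on the + strand for Atp2b1. Capitals mark the GC box (GGGCGG) and the CCAAT box (CCAAT), searched on both strands.
Atp2a2: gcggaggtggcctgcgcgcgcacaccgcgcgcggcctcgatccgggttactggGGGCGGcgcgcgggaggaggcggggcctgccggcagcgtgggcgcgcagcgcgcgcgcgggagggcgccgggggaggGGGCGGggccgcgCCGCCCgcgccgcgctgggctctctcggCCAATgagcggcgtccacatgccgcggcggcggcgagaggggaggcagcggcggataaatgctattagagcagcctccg
Atp2b2: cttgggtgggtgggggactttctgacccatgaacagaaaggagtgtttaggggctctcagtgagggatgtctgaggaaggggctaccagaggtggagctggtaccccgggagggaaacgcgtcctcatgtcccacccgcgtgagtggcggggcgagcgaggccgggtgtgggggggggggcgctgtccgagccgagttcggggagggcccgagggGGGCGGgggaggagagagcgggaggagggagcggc
Atp2b1: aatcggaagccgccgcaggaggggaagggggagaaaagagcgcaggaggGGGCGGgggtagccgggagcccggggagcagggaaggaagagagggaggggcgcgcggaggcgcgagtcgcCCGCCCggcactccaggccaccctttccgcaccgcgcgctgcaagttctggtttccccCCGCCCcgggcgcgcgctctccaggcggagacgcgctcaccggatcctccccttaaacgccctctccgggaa
These are matches of letters and no more. Atp2a2 held 3 GC boxes and 1 CCAAT box in a stretch of 80.0% G and C, Atp2b2 held 1 GC box in 69.2%, and Atp2b1 held 3 GC boxes in 72.8%, against a median of 51.2% over 33469 promoters of the same length. Of the 8 members, 7 were found in the table by symbol, all but Atp2b3. A GC box lay in 4 of the 7 and in 30.5% of all promoters, and a CCAAT box in 3 of the 7 and in 34.0%. The cyclic AMP response element TGACGTCA, in 1.59% of all promoters, and the TATA box TATAAA, in 12.9%, lay in 0 of the 7. No searched motif contains another.

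Slc8a1 encodes the most widely made sodium-calcium exchanger. Its brightest probe, A_44_P323285, had log2 signals of -0.79 and 0.16 in naïve neurons, 0.77 and 0.59 in sham neurons, -0.76 and -0.06 in surviving neurons and -1.35 and 0.37 in dying ones, and it was not above background on naïve replicate 1 or dying replicate 1. Sham lay above all other arrays, and the other groups overlapped. Probe A_44_P290391 had -2.82 and -2.26 in naïve neurons, -2.33 and -2.17 in sham neurons, -0.02 and 0.71 in surviving neurons and 0.59 and -0.23 in dying ones, and was above background on the 4 arrays of injured rats only. The third probe, designed on a transcript outside RefSeq, was above background on none and ranged from -4.53 to -1.76.

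Against sham, A_44_P290391 entered the test through the injured groups alone. Because no sham array was above background, only a lower bound holds, set by the mean of the bright group over the mean, per sham array, of the higher of the probe's own signal and the lowest signal of any probe above background. By that bound, surviving neurons were at least 1.48-fold higher and dying neurons at least 1.32-fold. The adjusted p of limma, 0.0167 and 0.00809, belongs to the difference from sham values below background, and the bounds themselves were not tested. The same holds for every adjusted p given beside a bound below. Both surviving arrays and 1 of 2 dying arrays lay above the lowest signals that count on both sham arrays. By A_44_P323285 the same comparisons gave -1.09 (adjusted p = 0.264) and -1.17 (adjusted p = 0.173), with 1 of 2 dying arrays above background. The latter was -0.30 without dying replicate 1, on which the probe was below background, and passed the threshold without dying replicate 2. The signs of these probes thus differed. A_44_P290391 was below background in sham and A_44_P323285 did not pass the threshold in the main fit, so no direction is given for Slc8a1 as a gene.

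Slc8a2 encodes an exchanger made mainly in brain. Its probe, A_44_P355902, had log2 signals of -2.71 and -1.78 in naïve neurons, -0.99 and -2.11 in sham neurons, 0.23 and -0.51 in surviving neurons and -3.27 and -4.24 in dying ones. It was above background on both surviving arrays and on none of the other 6, a pattern of 306 of the 41012 probes (0.746%), while 177 (0.432%) were above background on both dying arrays alone. Surviving neurons were at least 2.97-fold above dying neurons, through the surviving group alone (adjusted p = 0.0953 in limma), and the difference missed the threshold. It passed without dying replicate 2 and not without dying replicate 1. Against sham, the bound for surviving neurons was 1.06-fold (adjusted p = 0.143), with 1 of 2 surviving arrays above the lowest signals that count on both sham arrays. The dying and sham groups were both below background and were not compared.

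Slc8a3 encodes an exchanger of brain and skeletal muscle. Its probe, A_44_P522355, had log2 signals of -2.83 and -1.83 in naïve neurons, -2.38 and -1.92 in sham neurons, 0.11 and 0.11 in surviving neurons and -0.58 and -0.47 in dying ones, and was above background on all 4 arrays of injured rats and none of the others. This pattern was shared by the probe A_44_P290391 of Slc8a1 and by 2640 of all probes (6.44%), and the reverse by 184 (0.449%) and 0 members. The lowest signal that counted as above background was also lower on the injured arrays, as given above, and its part in the pattern was not tested. The probe was below background in sham, and surviving neurons exceeded sham at least 1.26-fold (adjusted p = 0.0221 in limma). In dying neurons the test passed the threshold (adjusted p = 0.029), but the bound lay under 1 and gives no fold, so that a rise is not shown. Surviving neurons lay above dying neurons without overlap, by 0.64 (SE 0.49, adjusted p = 0.486).

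The comparison of surviving with dying neurons, which share a slide, asks which transcripts went with survival next to dying cells. In limma 0 of 13 tested member probes passed the threshold in either direction, as did 0 of 27391 probes (0% higher and 0% lower). At an unadjusted p under 0.05 there were 3 member probes and 5896 probes in all. Both surviving arrays lay above both dying arrays for 8 of the 13 member probes, against 30.0% of all tested probes, and below them for 0 of 13, against 21.7%. Among tested probes with a RefSeq accession, which all 13 have, these shares were 36.4% and 11.6%. Of the 13, Slc8a2 and A_44_P323285 of Slc8a1 entered through the surviving group alone, and no count over the 13 is read as a result. With no filter on background, 13 of 15 member probes were above 0, with a median of 0.38 beside -0.075 for all probes, and the other 2, of Atp2b4 and Slc8a1, were above background on no array.

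By the filter of the methods, read as above background on all 4 arrays, more than 2-fold apart and with replicates no more than 1.5 times apart, 1 of 13 member probes was higher in surviving neurons, against 2.18% of all tested probes, and 0 were lower, against 1.65%. The methods state the 2-fold cut relative to sham, and here it was applied to each comparison. The probe kept as higher was A_42_P723936 of Atp2b3, with a difference of 1.20 (SE 0.47, adjusted p = 0.202 in limma). Without dying replicate 2, 4 member probes passed the threshold of limma, the pair of Atp2b1, A_44_P282482 of Atp2a2 with a difference of 1.92 in place of 1.33, and the probe of Slc8a2, along with 5994 of all probes. Without dying replicate 1, 0 did, and that Atp2a2 probe differed by 0.75. Such a fit takes the spread of the lone dying array from the rest. A p that misses the threshold does not show that surviving and dying neurons did not differ.

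**Figure D3:**
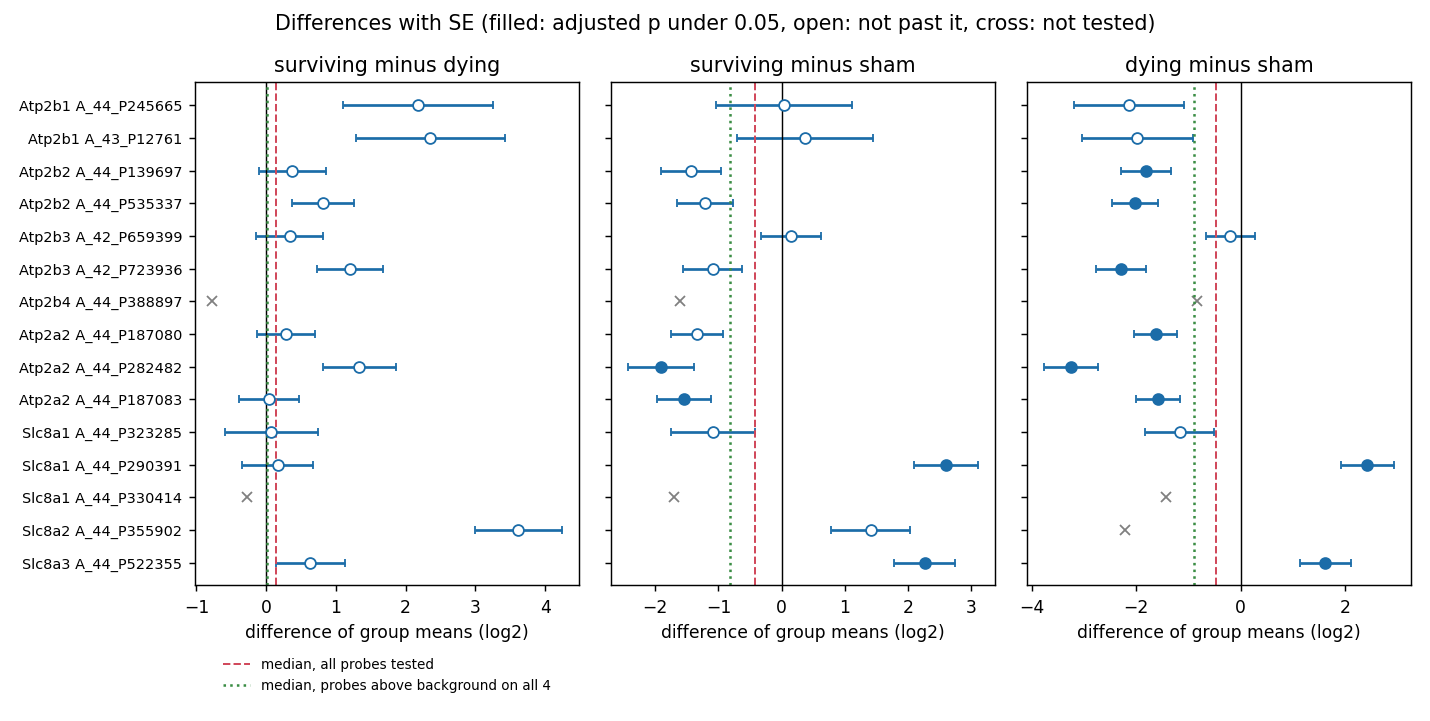
Differences of log2 signal between groups for each member probe, with the SE of limma as bars and filled points for an adjusted p under 0.05. With the main scaling shown here, all differences between surviving and dying neurons of tested probes were above 0 and none passed the threshold. With the RefSeq median 5 of these 13 lay below 0. Against sham the Atp2a2 probes were below 0, and Slc8a1 A_44_P290391 and Slc8a3, below background in sham, above 0.

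Surviving neurons were compared with sham to show how neurons without the stain differed from those of rats without the injury. Of 13 tested member probes, 2 were higher, against 6.82% of 26905 tested probes, and 2 were lower, against 12.0%. They were the probes of Slc8a1 and Slc8a3, which entered through the surviving group alone, as did Slc8a2, and the pair of Atp2a2 probes given above. Groups did not overlap for 4 higher member probes, against 28.0% of all, and for 7 lower ones, against 48.8%. The filter of the methods kept 0 higher, against 1.86%, and 6 lower, against 16.1%, the latter being 2 probes of Atp2b2, 1 of Atp2b3 and 3 of Atp2a2. The median difference was -0.43 over all tested probes and -0.82 over those above background on all 4 arrays. Relative to the former, Atp2a2 A_44_P282482 and A_44_P187083 stood at -1.48 and -1.12, and relative to the latter at -1.08 and -0.72.

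Scaling set the balance of directions between surviving neurons and sham. Over all probes, 1834 were called higher and 3240 lower, whereas scaling by the 75th percentile gave 4134 and 1496, quantile normalization 2242 and 1537, the authors' series values 4407 and 1443, RefSeq scaling 1160 and 3366, and the median of probes above background on all 8 arrays, a scaling chosen after seeing the data, 5120 and 1277. The median difference of all tested probes moved to 0.36, 0.18, 0.45, -0.62 and 0.55. With the normexp correction 0 probes were called, and with sham replicate 1 or 2 or surviving replicate 1 or 2 left out 14, 60, 31 and 24 were called higher and 239, 453, 384 and 337 lower, so that the shares of all probes above rest on all 4 arrays. With the 75th percentile 3 member probes were higher, with Slc8a2 added, and 0 lower. Leaving out any 1 of the 4 arrays left 0 member probes past the threshold. The adjusted p ranged over the alternatives from 0.00847 to 0.987 for A_44_P282482 of Atp2a2 and from 0.00423 to 0.872 for A_44_P290391 of Slc8a1.

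Dying neurons were compared with the same sham arrays, so that both comparisons share them. Of 12 tested member probes, 2 were higher, against 15.1% of 25623 tested probes, and 6 were lower, against 29.0%. The higher ones were A_44_P290391 of Slc8a1 and the probe of Slc8a3, which entered through the dying group alone and the latter of which is not shown to rise, as said above, and the lower ones were 2 of 2 probes of Atp2b2, 1 of 2 of Atp2b3 and 3 of 3 of Atp2a2. Groups did not overlap for 2 higher member probes, against 30.8% of all, and 9 lower ones, against 45.3%, while the methods' filter kept 0 higher, against 1.30%, and 4 lower, against 10.4%. The median difference was -0.46 over all tested probes, -0.80 over those with a RefSeq accession and -0.90 over those above background on all 4 arrays. Relative to the median of all tested probes, the 6 lower probes stood between -2.78 and -1.12. Relative to that of probes above background on all 4 arrays, they stood between -2.34 and -0.69. Atp2b1 differed from sham by -2.14 (adjusted p = 0.129) and -1.98 (adjusted p = 0.154), values that rest on dying replicate 1, without which they were -0.40 and -0.47.

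Over all probes, 3863 were called higher and 7426 lower in dying neurons against sham, which became 7050 and 4763 with the 75th percentile, 5261 and 4086 after quantile normalization, 7359 and 4327 with the authors' series values and 8359 and 3827 with the median of probes above background on all 8 arrays. The number of member probes past the threshold, 8 of 12, became 6, 2, 6 and 5 in the same order. With the normexp correction it was 0, as it was for all 25623 probes, of which 2347 had an unadjusted p under 0.05. Without sham replicate 1 it was 1, without sham replicate 2 it was 3, and without dying replicate 1 or 2 it was 7 or 10. The calls over all probes in these 4 fits were 863, 1290, 2126 and 5479 higher and 2185, 3877, 5719 and 7947 lower. The probe A_44_P282482 of Atp2a2 passed in 15 of 16 alternatives and had the lowest adjusted p of the members.

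**Figure D4:**
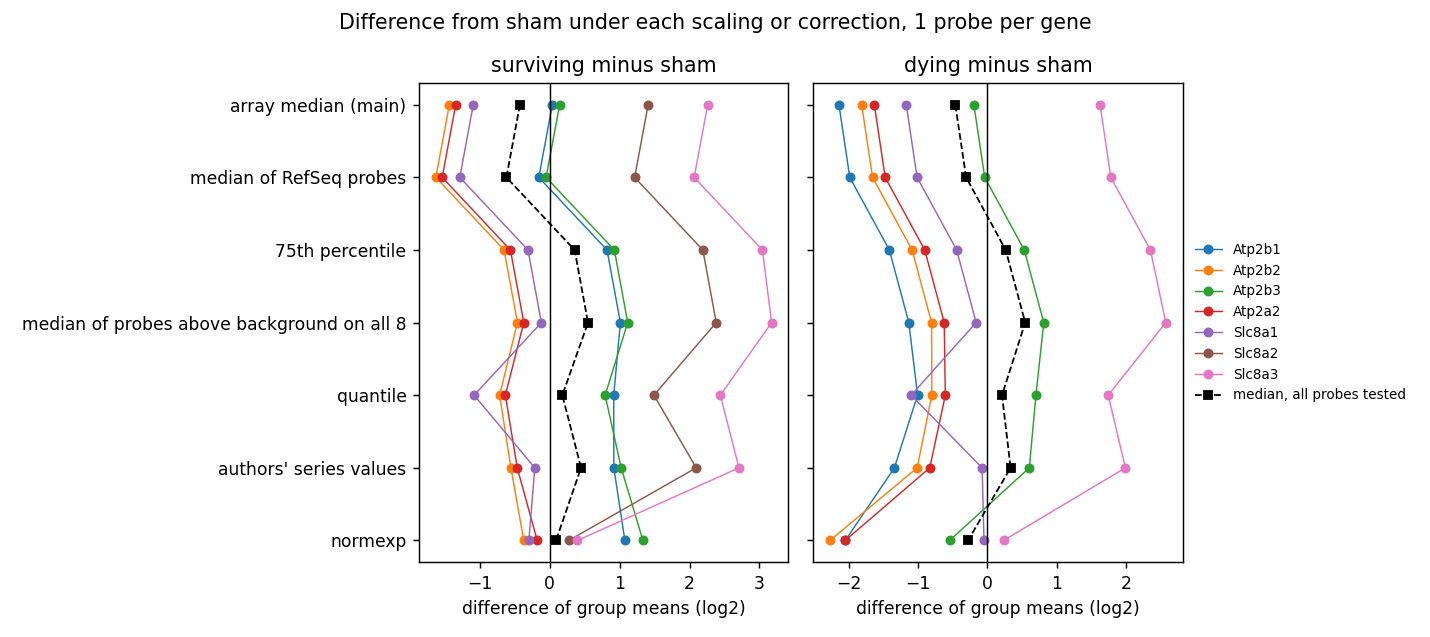
Differences against sham of the probe that stands for each gene and was tested, under each scaling, for surviving and for dying neurons. Most values move up or down with the shift of all probes, less so for the exchangers after quantile normalization and with normexp. Atp2a2 stays below 0 and Slc8a3 above 0. Atp2b3 in dying neurons crosses 0, as do Atp2b1 and Atp2b3 in surviving neurons with the RefSeq median.

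Sham was set against naïve neurons as the background of both comparisons. In limma 0 of 10 tested member probes passed the threshold, as did 0 of 20676 probes (0% higher and 0% lower). At an unadjusted p under 0.05 there were 0 member probes and 997 probes in all. Groups did not overlap for 6 higher member probes, against 38.0% of all, and 0 lower, against 4.95%, and the methods' filter kept 0 and 0, against 1.76% and 0.116%. The median difference of all tested probes was 0.37. The differences ranged from 0.21 for A_43_P12761 of Atp2b1 to 0.99 for A_44_P323285 of Slc8a1.

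The other genes of calcium handling followed from 9 lists with 49 genes on the array, each read by its brightest RefSeq probe where it had one. Between surviving and dying neurons 0 of 44 tested genes passed in limma. Against sham, 1 of 43 was higher and 9 were lower in surviving neurons, and 2 of 41 were higher and 17 lower in dying neurons, with the higher ones below background in sham, beside the shares of all probes given above. Of the lower ones in dying neurons, Ryr3 and Sdfr1 entered through sham alone. Sdfr1 did so because 1 dying array had no usable spot, and its mean of 10.09 in dying neurons is the value of the other array. Between sham and naïve neurons 0 of 40 passed. For these genes, here and below, the differences from sham are those of the main scaling with all arrays, and whether they hold in the alternatives was not tested. Over probes above background on all 4 arrays, the median difference from sham was -0.82 in surviving and -0.90 in dying neurons. The median difference between surviving and dying neurons was 0.50 for the 3 tested other calcium pumps, 0.53 for 4 other exchangers, 0.77 for 9 regulators and partners of the pumps, 1.66 for 5 genes around the mitochondrial uniporter, 1.19 for 6 release channels, 1.01 for 2 genes of store-operated entry, -1.11 for 4 buffers of the cytosol, 0.30 for 4 calcium-binding proteins of the endoplasmic reticulum and 0.70 for 7 neuronal calcium sensors. Over all tested probes it was 0.14. In these lists Pln, Sdfr1, Cbara1, Efha1, Itpr3, Ryr1, Ryr3, Stim2 and Kcnip4 entered through the surviving group alone. Ocm and Kcnip2 entered through the dying group alone, and no median of a list is read as a result. The value of the buffers lies between those of Calb1 and Calb2, both of which stood higher on dying replicate 1 than on the other 3 injured arrays. The uniporter median is that of Vdac1, at 2.71 on dying replicate 1 and 3.96 on dying replicate 2. Vdac2 of that list had 1.25 and 3.48 on these arrays, so both were lower on dying replicate 1.

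Among genes that regulate the pumps, Calm2, which encodes an activator of plasma membrane pumps, was lower than sham in surviving neurons, by -1.62 (adjusted p = 0.0457 in limma), and in dying neurons, by -2.93 (adjusted p = 0.00326). It had log2 signals of 10.65 and 10.28 in sham neurons, 8.92 and 8.78 in surviving neurons and 7.27 and 7.80 in dying ones, without overlap. Bsg, which encodes basigin, a partner protein of plasma membrane pumps, was lower in dying neurons by -1.42 (adjusted p = 0.0323), and its difference in surviving neurons was -0.63 (adjusted p = 0.328). Pdzk1, a scaffold gene, was called higher in dying neurons through that group alone. It was below background in sham, and the bound for dying neurons was 1.07-fold (adjusted p = 0.038), with log2 signals of 0.69 and -0.95 on the dying arrays, of which the first lay above the lowest signals that count on both sham arrays. Of 9 tested regulators, 2 were lower and 0 higher in surviving neurons, and of 8 tested, 4 were lower and 1 higher in dying neurons. Among those 4, Sdfr1 entered through sham alone, with 1 dying array measured. The other calcium pumps gave 1 lower gene of 3 in both comparisons, Atp2c1 of the Golgi apparatus, by -1.96 in surviving and -2.12 in dying neurons (adjusted p = 0.0237 and 0.00766 in limma). Of 4 other exchangers, 1 was lower in surviving and 2 in dying neurons. The latter were Slc24a3 (-2.23, adjusted p = 0.00575) and Slc24a2 (-3.82, adjusted p = 0.0317), both potassium-dependent sodium-calcium exchangers. Slc24a2 had 5.07 and 6.43 in sham neurons, 4.79 and 4.13 in surviving neurons and 0.11 and 3.76 in dying ones, with dying replicate 1 far below the rest.

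Of 6 tested release channels, 1 was higher and 1 lower than sham in surviving neurons, and of 5 tested, 1 was higher and 2 lower in dying neurons. Among those 2, Ryr3 was above background on 1 of 2 dying arrays and entered through sham alone. Itpr1, the main inositol trisphosphate receptor of neurons, had log2 signals of 9.76 and 9.52 in sham neurons, 7.61 and 7.82 in surviving neurons and 7.55 and 7.12 in dying ones. It was lower by -1.93 in surviving and -2.30 in dying neurons (adjusted p = 0.0237 and 0.00552 in limma), with no injured array reaching a sham array. Itpr2, a further receptor of that family, was called higher in both through the injured groups alone. It was below background in sham, and the bounds were 1.02-fold for surviving and 1.16-fold for dying neurons (adjusted p = 0.0256 and 0.00823). Its log2 signals of 0.21 and -0.61 in surviving neurons and -0.36 and 0.34 in dying ones lay above the lowest signals that count on both sham arrays on 1 array of each group. The uniporter list gave 1 lower gene of 5 in surviving and 3 in dying neurons. Its lowest adjusted p was that of Vdac1, a channel of the outer mitochondrial membrane, with -2.02 and -3.68 (adjusted p = 0.0371 and 0.00255). Vdac1 had 7.22 and 6.80 in sham neurons, 5.10 and 4.89 in surviving neurons and 2.71 and 3.96 in dying ones, without overlap.

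Of 4 tested cytosolic buffers, 1 was lower than sham in surviving neurons, Calb1 (-3.18, adjusted p = 0.049 in limma), and 1 in dying neurons, Pvalb (-1.41, adjusted p = 0.0323). Calb1 encodes calbindin and had 4.26 and 5.24 in sham neurons, 0.67 and 2.47 in surviving neurons and 4.47 and 1.88 in dying ones, so that dying replicate 1 lay at the level of sham and the other injured arrays below it. Pvalb and S100b also stand in the interneuron and astrocyte lists. Of 4 tested calcium-binding proteins of the endoplasmic reticulum, 1 was lower in both comparisons, Hspa5 (-1.75 and -2.05, adjusted p = 0.0295 and 0.00778), a chaperone of the store that Atp2a2 fills. Of the neuronal calcium sensors, 1 of 6 was lower in surviving neurons and 3 of 7 in dying neurons. Vsnl1, which encodes visinin-like protein, was lower in both (-1.65 and -2.71, adjusted p = 0.0417 and 0.00384), and Freq, the neuronal calcium sensor gene, in dying neurons (-1.91, adjusted p = 0.0191). Store-operated entry gave 0 calls, with 2 genes tested in surviving and 1 in dying neurons. Its sensor Stim1 differed from sham by -0.68 (adjusted p = 0.294) and -1.09 (adjusted p = 0.0756).

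The genes most like 1 probe of each kind of member were searched by Pearson's r over the 8 arrays among 8899 named RefSeq probes above background on all of them. These arrays fall into pairs and slides, and the values are a description. For A_42_P659399 of Atp2b3 they were RGD1563595, Creb3l1 and Polrmt (r = 0.98, 0.98 and 0.97), with 31 probes above r = 0.9. For A_44_P187080 of Atp2a2 they were Spsb4, Fgf13 and Atg16l1 (r = 0.999, 0.998 and 0.995), and 1754 probes lay above 0.9, so that its profile was a common one. For A_44_P323285 of Slc8a1 they were Efhd2, mrpl9 and Ncoa3 (r = 0.97, 0.96 and 0.96), with 24 probes above 0.9, and nothing is read from these, since the probe was below background on 2 of the 8 arrays, which held its lowest values.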

How the data were processed

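RNA of captured CA3 neurons was measured on 8 single-colour Agilent rat arrays, 2 for each of 4 groups, taken from the labels. The authors obtained processed intensities with Agilent Feature Extraction 9.1.3.1, per the file headers by background subtraction and detrending and unscaled between arrays. Also deposited there are mean spot intensities, local background intensities and marks for other properties of a spot (well above background, saturated, non-uniform). In the series table the authors gave signal values, which equal the processed signal over 1 constant for each array, with a floor. The methods name the array's median as that constant. The series medians of 0.131 to 0.282 are not 1, so how the constant was set stays unknown.

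Here spots marked non-uniform were dropped, the remaining spots of each probe averaged and scaled to the median of all probes on the array, and log2 values computed with a floor of 0.01. A model of 4 group means was fitted to all 8 arrays with limma 3.58.1 in R 4.3.3, with empirical Bayes moderation, and tested on simulated data first. A probe was tested where either of the groups compared had both arrays well above background, two-sided, with Benjamini-Hochberg adjustment over all of them and a threshold of 0.05. Summaries used Python 3.11.15 with pandas 2.3.3. Precision is limited by 2 arrays per group.

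Named were all 8 members with each probe, at most 2 genes in each direction of each pathway list (those with the largest difference between surviving and dying neurons among genes above background on all 4 arrays), and the 3 genes most alike. Atp2c1 and Hspa5 were named after their values were seen. The members and lists were chosen with earlier results of these data known. Alternatives were scaling by the 75th percentile or the RefSeq median, quantile normalization, normexp with an offset of 50, the series values, other filters and floors, non-uniform spots kept, the 4 arrays compared alone, the replicate block and leaving out each array. Scaling by the probes above background on all 8 arrays and a crossed pairing were chosen after seeing the data. Promoters came from RefSeq (GRCr8).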

Additional observations from a re-analysis of the deposited data

How the results depend on the processing

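All 12 differences of member probes past the threshold in the comparisons with sham kept their sign in the 16 alternatives counted for each, which leave out the crossed pairing. The probes of Slc8a1 and Slc8a3 among them entered through the injured groups alone, with sham below background, so nothing is read from their kept sign. They were not tested with the filter on all 4 arrays. Between surviving neurons and sham, 5074 of 26905 tested probes passed the threshold in the main fit. With the 4 arrays compared alone 12161 of 26905 did, and with no filter on background 5137 of 41004. The higher member count with the 4 arrays alone, given below, thus came with a rise over all probes and is not read as a result on the members. The side of the threshold of the 12 differences did not hold in all alternatives, and the causes were not tested. Against sham, the 4 member probes past it in surviving neurons became 2 after quantile normalization, 2 with no filter on background, 8 with the 4 arrays compared alone and 0 with normexp, and 0 with any 1 of the arrays left out. The 8 in dying neurons became 5 with scaling by the probes above background on all 8 arrays, 2 after quantile normalization, 0 with normexp, and from 1 to 10 with single arrays left out. For surviving against dying neurons the number lay between 0 and 4 with single arrays left out and was 0 in the other alternatives.

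The values that changed sign were none of these 12. For surviving against dying neurons, scaling by the RefSeq median gave -0.013 for Atp2b3 A_42_P659399, -0.064 and -0.31 for Atp2a2 A_44_P187080 and A_44_P187083, and -0.27 and -0.18 for Slc8a1 A_44_P323285 and A_44_P290391. Quantile normalization gave -0.028 and -0.24 for the same Atp2a2 probes. Slc8a1 A_44_P323285 was -0.25 with normexp and -0.14 with the series values. With single arrays left out, Atp2b2 A_44_P139697 ranged from -0.028 to 0.78, Atp2a2 A_44_P187083 from -0.039 to 0.12, Slc8a1 A_44_P323285 from -0.79 to 0.94 and A_44_P290391 from -0.24 to 0.57. Between surviving neurons and sham, RefSeq scaling gave -0.16 for Atp2b1 A_44_P245665 and -0.051 for Atp2b3 A_42_P659399, and the former ranged from -0.16 to 0.23 with arrays left out. Between dying neurons and sham, Atp2b3 A_42_P659399 was 0.81 with the probes above background on all 8 arrays, 0.53 with the 75th percentile, 0.70 after quantile normalization, 0.61 with the series values, and from -0.43 to 0.045 with arrays left out.

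Between sham and naïve neurons, Atp2b1 A_43_P12761 and Atp2b3 A_42_P723936 were -0.21 and -0.17 with the probes above background on all 8 arrays, -0.079 and -0.034 with the 75th percentile, -0.20 and -0.18 after quantile normalization, and -0.12 and -0.072 with the series values, and Atp2b2 A_44_P535337 was -0.0085 after quantile normalization. With arrays left out, Atp2b1 A_44_P245665 ranged from -0.35 to 1.48, A_43_P12761 from -0.99 to 1.41 and Atp2b3 A_42_P723936 from -0.0895 to 0.60.

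Replicate numbers gave no pairing: deviations of same-numbered arrays correlated across 15250 probes with r from -0.194 (surviving with dying) to 0.071. With the replicate block, 2 member probes passed between surviving neurons and sham in place of 4, without those of Atp2a2. Over all 26905 tested probes the block gave 3488 in place of 5074. The member counts of the other comparisons did not change. A crossed pairing of the injured arrays, added after seeing the data, gave 2, 8 and 0 member probes in surviving against sham, dying against sham and surviving against dying neurons. Over all tested probes it gave 3772 of 26905, 10790 of 25623 and 0 of 27391 in the same order.

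Signal over background limits the exchangers: 4 of their 5 probes had at least 1 group with no array above background.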
